A study of Rattus norvegicus with 24 samples.

Results

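Astrocytes clear transmitter, move water, ions and urea, couple to each other and metabolize folate. The genes described here encode 10 proteins for these tasks: Slc1a2, Slc1a3, Glul, Slc6a11, Aqp4, Slc14a1, Gja1, Gjb6, Slc4a4 and Aldh1l1. They were chosen by name as an astrocyte set, with earlier results of these data known. Each was read at the gene locus that carries its symbol, so the set is 10 of 26641 named loci. Slc14a1 was the only gene of the set with a second locus of the same span, which had a mean of 14.1 normalized counts against 3162 at the locus used and was left out. Expression was measured by polyadenylated RNA sequencing of 24 libraries from 12 adult male Sprague-Dawley rats, with 6 libraries in each of 4 groups. A TBI group and a sham group were each sampled in the perilesional cortex and in the ipsilateral thalamus at 3 months. TBI was a lateral fluid-percussion injury, a fluid pulse onto the intact dura under pentobarbital-based anaesthesia, and the 6 TBI rats had been picked by magnetic resonance imaging for a chronic inflammatory rim around the lesion. Sham rats underwent anaesthesia and craniectomy without the impact, and both regions came from the same rats. The groups are therefore a selected form of the injury and not all injured rats.

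Astrocytes take up the glutamate that neurons release through the sodium-driven transporters GLT-1 (Slc1a2) and GLAST (Slc1a3) and turn it into glutamine with glutamine synthetase (Glul). GAT-3 (Slc6a11) takes up GABA, the water channel aquaporin-4 (Aqp4) lines the endfeet on blood vessels, and the urea transporter UT-B (Slc14a1) carries urea. Connexin 43 (Gja1) and connexin 30 (Gjb6) form the gap junctions between astrocytes, the cotransporter NBCe1 (Slc4a4) moves sodium with bicarbonate, and the folate enzyme Aldh1l1 is widely used as a marker of astrocytes in many brain regions.

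The level of a gene is given as a normalized count, its number of sequenced fragments over the size factor of the library, and the levels rested on 30568927 to 54608922 fragments per library. Every gene of the set was far above the detection limit, with the lowest value in any library at 1027 normalized counts for Aldh1l1 in sham cortex. The table gives no transcript lengths, so levels are compared between groups for the same gene and not between genes. Unless stated otherwise, differences are log2 fold changes ± standard error from limma on log2(normalized count + 1), with p-values adjusted by the Benjamini-Hochberg method over all loci tested, and a gene is said to rise or fall where the adjusted p was under 0.05. In pieces of whole tissue, fewer cells of a type and less RNA per cell cannot be told apart.

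The promoters of Aqp4, Slc14a1 and Gja1 are shown because these 3 genes are the ones whose TBI and sham libraries were fully apart in both regions. The sequences are the 250 bases before the transcription start in RefSeq, rat genome build GRCr8, written 5′ to 3′ in the direction of the gene, with matches to the motifs named below in capitals. They lie at chr18:6798843-6799092 on the minus strand (Aqp4, the farther upstream of its 2 starts), chr18:73864644-73864893 on the minus strand (Slc14a1) and chr20:36302314-36302563 on the plus strand (Gja1).
Aqp4: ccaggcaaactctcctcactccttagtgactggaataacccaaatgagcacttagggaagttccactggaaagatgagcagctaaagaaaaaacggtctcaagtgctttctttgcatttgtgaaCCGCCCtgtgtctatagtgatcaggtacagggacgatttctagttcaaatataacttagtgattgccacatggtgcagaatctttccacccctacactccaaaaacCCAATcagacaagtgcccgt
Slc14a1: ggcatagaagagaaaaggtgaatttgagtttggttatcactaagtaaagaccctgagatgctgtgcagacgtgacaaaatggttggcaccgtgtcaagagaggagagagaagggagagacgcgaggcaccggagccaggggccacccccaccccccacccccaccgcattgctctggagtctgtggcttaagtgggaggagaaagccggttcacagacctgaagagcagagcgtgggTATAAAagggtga
Gja1: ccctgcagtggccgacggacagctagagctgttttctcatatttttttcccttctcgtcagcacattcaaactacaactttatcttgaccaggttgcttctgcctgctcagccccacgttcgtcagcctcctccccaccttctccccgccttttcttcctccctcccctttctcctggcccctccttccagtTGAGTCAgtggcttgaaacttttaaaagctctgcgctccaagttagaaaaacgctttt
Motifs were searched on both strands in the 250 bases before every RefSeq start, and all 10 genes of the set had an entry, with 16 starts among them, of which the 3 of Slc1a3 overlap. The capitals in Slc14a1 mark TATAAA, the letters of a common core promoter element, 13 to 8 bases before the start. These letters stood before at least 1 start in 14.1% of all 27457 genes and in no other gene of the set. The capitals in Gja1 mark TGAGTCA, a match to the AP-1 motif TGANTCA 58 to 52 bases before the start, held by 6.99% of all genes and by no other gene of the set. The capitals in Aqp4 mark CCGCCC, the reverse complement of the GC box GGGCGG, and CCAAT. The GC box was held by 5 of the 10 genes and 33.5% of all genes, the CCAAT letters by 3 of the 10 and 36.1% of all. The STAT motif TTCNNNGAA was held by 8.19% of all genes and none of the 10. The 3 genes thus shared none of the 5 motifs, and a match is a run of letters only, since binding was not measured.

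TBI against sham was compared first in the perilesional cortex, next to the lesion. The water channel and urea transporter genes rose most, Gja1 and Aldh1l1 rose less, and Slc1a2, Glul and Slc6a11 fell slightly. Of the 10 genes, 4 rose and 3 fell, where 14.3% of all 15493 loci tested rose and 14.9% fell, or 2223 and 2308 loci. With scaling to the upper quartile, 4 genes of the set rose and 1 fell (Glul), and 2388 loci rose and 1986 fell. The TBI and sham libraries did not overlap for 4 of the 10 (Aqp4, Slc14a1, Gja1 and Glul), against 12.5% of all loci. The median log2 fold change of the 10 was -0.04 and that of all loci was -0.01.

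In the ipsilateral thalamus, which lies away from the lesion and is connected with the injured cortex, the same 4 genes rose and none fell by limma, edgeR or DESeq2 fitted to the thalamus libraries. At an unadjusted p under 0.05, 1 gene was lower, Slc6a11, which passed in a limma fit of all 24 libraries. There, 14.5% of all 15564 loci rose and 20.9% fell, or 2259 and 3257 loci. With scaling to the upper quartile, 2635 loci rose and 2433 fell, while the genes of the set kept their 4 rises and no falls. The groups did not overlap for 3 of the 10 genes (Aqp4, Slc14a1 and Gja1), against 18.2% of all loci. The median log2 fold change of the 10 was 0.09 in the thalamus, beside -0.02 over all loci.

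**Figure D1:**
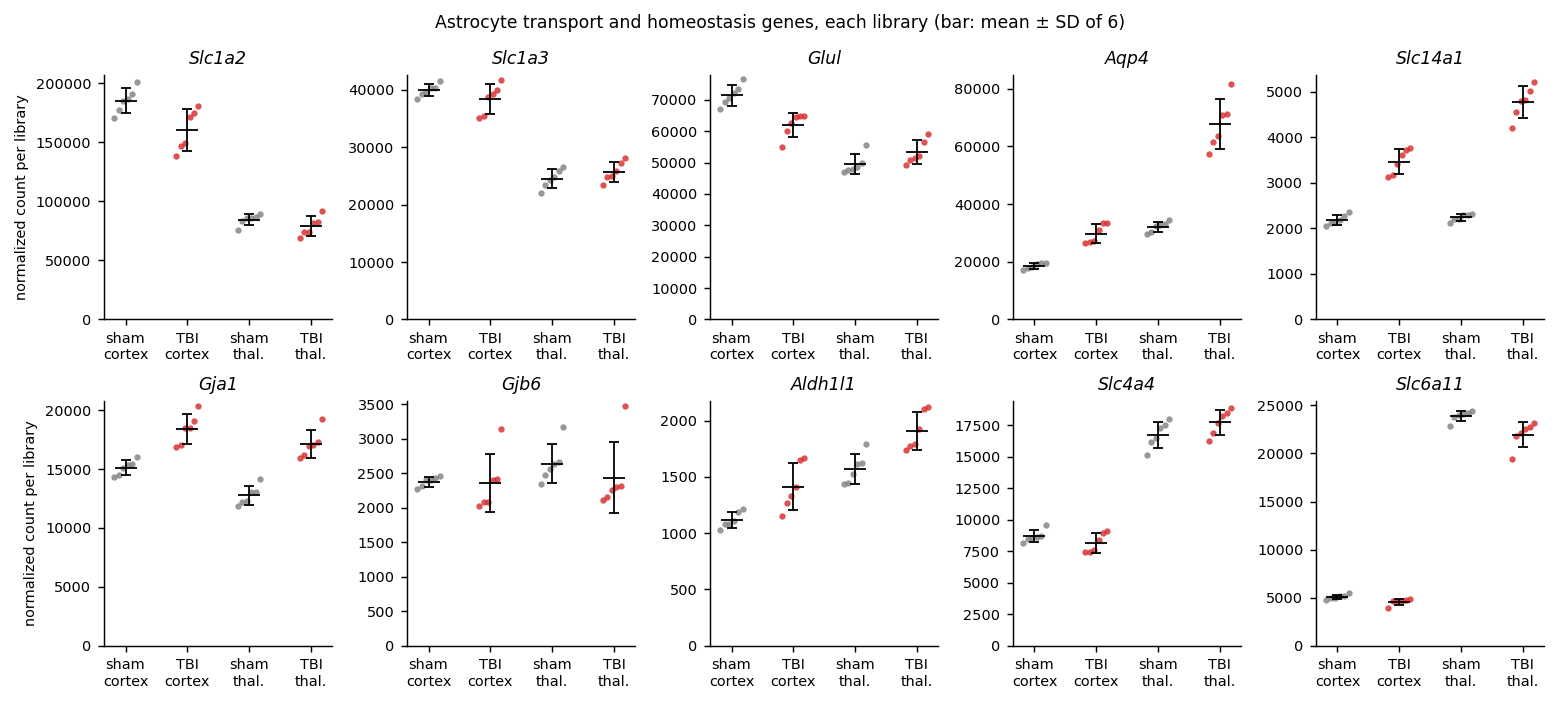
Normalized count of each of the 10 genes (vertical axis from 0) in every library, by group; grey points are sham and red points TBI libraries, and bars are the mean ± SD of 6 libraries. Aqp4 and Slc14a1 lie apart between TBI and sham in both regions, Gja1 as well, while 1 TBI library stands above the rest for Gjb6 in each region.

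Aqp4 had the most fragments of the genes that rose. In the cortex it ran from 16962 through a median of 18615 to 19539 normalized counts in sham rats, and from 26331 through 29173 to 33355 in TBI rats. Its thalamic values ran from 29752 through 32565 to 34416 in sham and from 57304 through 67211 to 81700 in TBI rats. Every TBI library was above every sham library of its region. The mean was 1.61-fold higher after TBI in the cortex (log2 fold change 0.68 ± 0.067, limma adjusted p = 1.05e-05) and 2.11-fold higher in the thalamus (1.07 ± 0.079, adjusted p = 4.41e-07). TBI cortex and sham thalamus were neighbours in the order of levels and their libraries overlapped, since the sham thalamus already held 1.74-fold more Aqp4 than the sham cortex.

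Slc14a1 moved by about the same amount. Its libraries ran from 2052 through 2162 to 2363 normalized counts in sham cortex and from 3120 through 3500 to 3756 in TBI cortex. In the thalamus they ran from 2109 through 2249 to 2317 in sham rats and from 4202 through 4805 to 5216 in TBI rats. Sham libraries of the 2 regions overlapped, whereas the TBI libraries lay above them and were apart from each other by region. The mean was 1.58-fold higher in TBI cortex (0.66 ± 0.057, limma adjusted p = 3.18e-06) and 2.13-fold higher in TBI thalamus (1.09 ± 0.052, adjusted p = 1.6e-08).

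Of the 2 connexins, only Gja1 rose. It ran from 14307 through 15226 to 16034 normalized counts in sham cortex and from 16886 through 18512 to 20370 in TBI cortex. In the thalamus it ran from 11847 through 12660 to 14142 in sham and from 15948 through 16990 to 19289 in TBI rats. The groups were apart in both regions, with a mean 1.22-fold higher in the cortex (0.28 ± 0.051, limma adjusted p = 0.000947) and 1.34-fold higher in the thalamus (0.42 ± 0.057, adjusted p = 7.09e-05). The other connexin, Gjb6, ran from 2265 through 2393 to 2460 in sham cortex and from 2024 through 2240 to 3145 in TBI cortex. In the thalamus it ran from 2348 through 2591 to 3164 in sham rats and from 2107 through 2274 to 3469 in TBI rats. Gjb6 was spread widely in TBI rats, and in both regions the highest TBI library was that of rat 45. The log2 fold change was -0.03 ± 0.088 in the cortex (limma adjusted p = 0.85) and -0.13 ± 0.11 in the thalamus (adjusted p = 0.369).

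Without the thalamus library of TBI rat 45, the Gjb6 fold change in the thalamus was -0.24 with a limma adjusted p of 0.0135, and the other 5 TBI libraries were below every sham library. That library also held the highest summed level of 8 leptomeningeal fibroblast markers in the thalamus, 52249 normalized counts against 2145 to 11272 in the other 11, and the highest summed level of 8 choroid plexus markers, 275225 against 599 to 111452. In the cortex the library of rat 45 was highest for both sums as well, at 54668 and 33888. The part of this tissue in the Gjb6 values was not tested.

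**Figure D2:**
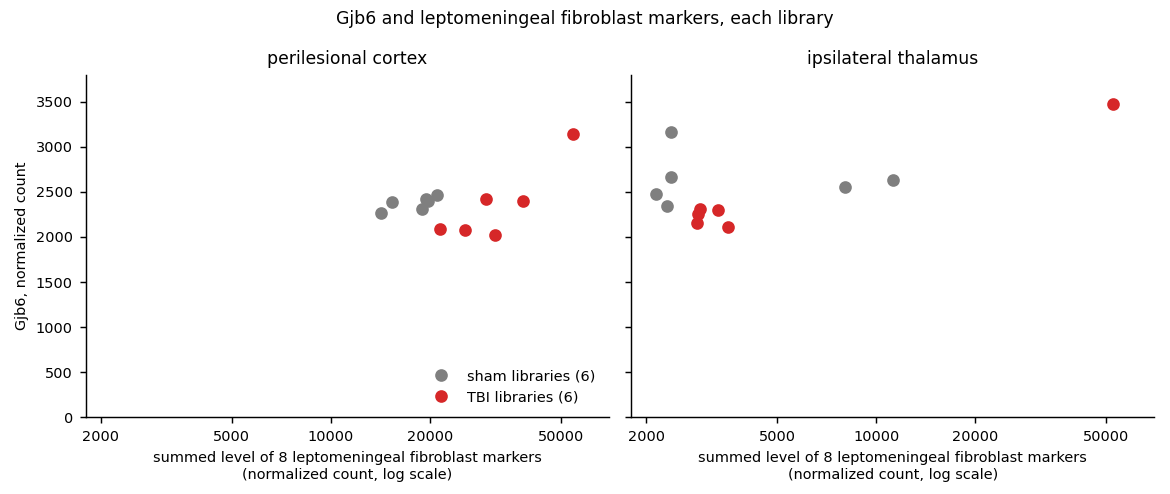
Normalized count of Gjb6 (vertical axis from 0) against the summed normalized count of 8 leptomeningeal fibroblast markers (log axis) in each library of the cortex (left) and thalamus (right); grey is sham, red TBI. The library of TBI rat 45 is the highest on both axes in each region, at 3145 and 3469 for Gjb6.

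Aldh1l1, the last gene that rose in both regions, had overlapping groups. It ran from 1027 through 1094 to 1218 normalized counts in sham cortex and from 1154 through 1369 to 1666 in TBI cortex, where 5 of 6 TBI libraries were above every sham library. Thalamic values ran from 1434 through 1568 to 1794 in sham and from 1734 through 1856 to 2120 in TBI rats, with 3 of 6 TBI libraries above every sham library. The mean was 1.27-fold higher in TBI cortex (0.33 ± 0.086, limma adjusted p = 0.0099) and 1.21-fold higher in TBI thalamus (0.28 ± 0.070, adjusted p = 0.00634).

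Slc1a2, the main glutamate transporter of the forebrain, ran from 170694 through 185927 to 200734 normalized counts in sham cortex and from 138162 through 160557 to 180822 in TBI cortex. The groups overlapped, with 3 of 6 TBI libraries below every sham library, and the mean was 13.5% lower after TBI in the linear values (percent difference -13.5, log2 fold change -0.21 ± 0.070, limma adjusted p = 0.0318). The call was lost (adjusted p up to 0.0699) when any of 7 of the 12 libraries was left out, namely TBI rats 24, 45 and 56 and sham rats 26, 32, 34 and 50. It was also lost with upper quartile scaling (adjusted p = 0.051) and with no filter on low values (0.0767). Thalamic levels ran from 75967 through 85780 to 89404 in sham and from 68921 through 78066 to 92037 in TBI rats, with a log2 fold change of -0.10 ± 0.074 and a limma adjusted p of 0.305.

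Glul ran from 67018 through 71376 to 76586 normalized counts in sham cortex and from 54957 through 63482 to 64771 in TBI cortex, where all 6 TBI libraries were below every sham library. The log2 fold change was -0.21 ± 0.051 (limma adjusted p = 0.00678). Thalamic libraries ran from 46954 through 48387 to 55595 in sham and from 49177 through 51901 to 59203 in TBI rats, with a log2 fold change of 0.11 ± 0.062 and a limma adjusted p of 0.194. The groups were thus apart in the cortex and overlapped in the thalamus.

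Slc1a3, the second glutamate transporter, passed the threshold in neither region. It ran from 38409 to 41522 normalized counts in sham cortex and from 35036 to 41695 in TBI cortex (-0.06 ± 0.048, limma adjusted p = 0.39, 95% confidence interval -0.16 to 0.04). In the thalamus it ran from 21984 to 26632 in sham and from 23429 to 28183 in TBI rats (0.07 ± 0.060, limma adjusted p = 0.382, 95% confidence interval -0.06 to 0.20). The groups overlapped in both regions.

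Slc6a11 was the gene of the set that differed most between regions and little between TBI and sham. It ran from 4776 through 5065 to 5435 normalized counts in sham cortex and from 3902 through 4657 to 4855 in TBI cortex, with 5 of 6 TBI libraries below every sham library. In the thalamus it ran from 22840 through 24038 to 24371 in sham and from 19433 through 22328 to 23196 in TBI rats, again with 5 of 6 below. The log2 fold change was -0.15 ± 0.054 in the cortex (limma adjusted p = 0.0415) and -0.12 ± 0.048 in the thalamus (adjusted p = 0.0612), so 1 of these nearly equal values passed the threshold. The thalamic value passed with all 24 libraries in 1 limma fit (adjusted p = 0.0471) and without the library of TBI rat 56 (-0.14, adjusted p = 0.0454). In the cortex the call was lost (adjusted p up to 0.0923) when any of 8 of the 12 libraries was left out, namely TBI rats 22, 24 and 45 and sham rats 26, 32, 34, 38 and 55. It was also lost with TMM scaling (adjusted p = 0.0572), upper quartile scaling (0.08), no filter on low values (0.0525) and edgeR (0.0694).

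Slc4a4 did not pass the threshold for TBI in either region. It ran from 8178 to 9610 normalized counts in sham cortex, from 7414 to 9104 in TBI cortex, from 15124 to 17979 in sham thalamus and from 16208 to 18851 in TBI thalamus. The log2 fold change was -0.10 ± 0.062 in the cortex (limma adjusted p = 0.262, 95% confidence interval -0.23 to 0.04) and 0.08 ± 0.054 in the thalamus (adjusted p = 0.262, 95% confidence interval -0.03 to 0.20).

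**Figure D3:**
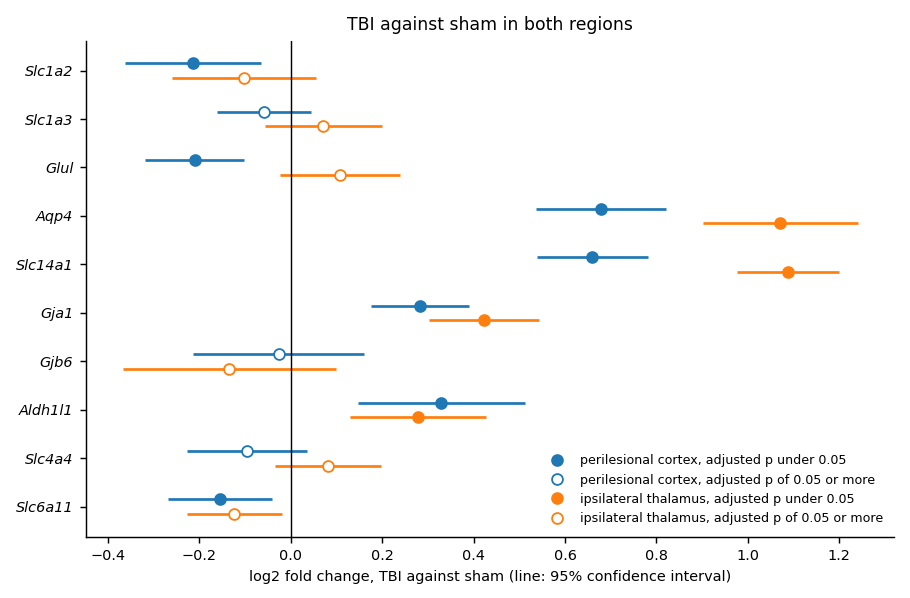
Log2 fold change of TBI against sham (horizontal axis) with its 95% confidence interval for each gene in the cortex (blue) and the thalamus (orange); filled points have an adjusted p under 0.05. Aqp4 moves from 0.68 (cortex) to 1.07 (thalamus), Slc14a1 from 0.66 to 1.09, and Glul lies at -0.21 in the cortex and 0.11 in the thalamus.

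Beside these values stood changes in other cell types of the tissue. In the cortex, 9 of 12 neuronal markers fell, 9 of 10 microglia and macrophage markers rose, 7 of 8 leptomeningeal fibroblast markers rose and 5 of 6 ependymal markers rose. Of 7 oligodendrocyte markers 3 rose there, and of 8 endothelial markers 1 rose, the latter near the share of all loci. The summed leptomeningeal level was 21463 to 54668 normalized counts in TBI cortex and 14230 to 21065 in sham cortex, without overlap, and the summed ependymal level was 217 to 870 against 178 to 251. Aqp4 is also made by ependyma and Gja1 by ependyma and leptomeninges, and the part of these cells in the cortical rises was not tested. In the thalamus, 0 of 8 leptomeningeal and 0 of 6 ependymal markers passed the limma threshold in either direction (1 and 0 at an unadjusted p under 0.05, and none by edgeR or DESeq2). The summed leptomeningeal level was 2861 to 52249 normalized counts in TBI thalamus and 2145 to 11272 in sham thalamus. The sham libraries of rats 34 and 50 held 11272 and 8062, and every other sham library was below every TBI library. The summed ependymal level was 999 to 2379 against 856 to 2222. The part of these cells in the thalamic rises of Aqp4 and Gja1 was not tested either. In that region, 11 of 12 neuronal markers fell and 10 of 10 microglia and macrophage markers rose. Of 8 endothelial markers 4 rose, and of 7 oligodendrocyte markers 1 rose, the latter near the share of all loci. The thalamic log2 fold changes of Aqp4, Slc14a1 and Gja1 were 1.07, 1.09 and 0.42. Slc14a1 is also made by red blood cells, and 0 of 6 erythroid markers tested in the cortex and 0 of 5 in the thalamus passed by limma, edgeR or DESeq2, or at an unadjusted limma p under 0.05. Their summed level in the cortex was 5468 to 8744 normalized counts after TBI and 5714 to 8965 in sham rats, and in the thalamus 3860 to 9161 and 4795 to 7295, so the groups overlapped. The part of red blood cells in the Slc14a1 values was not tested.

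Choroid plexus RNA was uneven between libraries. The summed level of its 8 markers was over 10000 normalized counts in 6 libraries, those of TBI rat 45 in both regions, sham rats 26 and 34 in the cortex and sham rats 34 and 50 in the thalamus. Without these libraries the thalamus kept its 4 rises, with log2 fold changes of 0.99 for Aqp4, 1.08 for Slc14a1, 0.35 for Gja1 and 0.23 for Aldh1l1 (limma adjusted p = 0.0489 for the last), and Gjb6 fell by 0.25 on the log2 scale (adjusted p = 0.0364). In the cortex, 3 rises were left, with Aqp4 at 0.63, Slc14a1 at 0.67 and Gja1 at 0.26. The log2 fold changes of the genes no longer called there were 0.32 for Aldh1l1 (limma adjusted p = 0.0678), -0.18 for Slc1a2 (0.194), -0.17 for Glul (0.0999) and -0.08 for Slc6a11 (0.302).

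Whether TBI acted alike in both regions was tested as the difference of the 2 fold changes, thalamus minus cortex, over all 24 libraries. It was positive and past the threshold for 3 of the 10 genes and negative for none (also none by edgeR or DESeq2, or at an unadjusted limma p under 0.05), where 2.72% of all 15678 loci were called higher and 4.54% lower. Slc14a1 differed by 0.43 ± 0.076 (limma adjusted p = 0.00104), Aqp4 by 0.39 ± 0.11 (adjusted p = 0.0237) and Glul by 0.32 ± 0.078 (adjusted p = 0.0131). The first 2 rose by more in the thalamus, and Glul moved in opposite directions, with the cortical fall past the threshold and the thalamic value not. The other 7 genes did not pass, among them Gja1 at 0.14 ± 0.075 (adjusted p = 0.273) and Slc4a4 at 0.18 ± 0.082 (adjusted p = 0.199). The median difference was 0.14 over the 10 genes and -0.01 over all loci. The Aqp4 call was lost when both libraries of TBI rat 24 or 63 or of sham rat 50 or 55 were left out, with adjusted p of 0.0784, 0.0601, 0.0795 and 0.0517. Without the 6 libraries of high choroid plexus level, only Slc14a1 kept the call (0.41, adjusted p = 0.0246), with Aqp4 at 0.36 (0.107) and Glul at 0.27 (0.162).

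The same comparison can be read rat by rat as the log2 ratio of thalamus to cortex. For Slc14a1 it was -0.03 to 0.12 in the 6 sham rats and 0.16 to 0.62 in the 6 TBI rats, without overlap. For Aqp4 it was 0.62 to 0.93 in sham rats, and 4 TBI rats lay above this range at 1.27 to 1.41 while TBI rats 22 and 52 lay within it at 0.89 and 0.78. The same 2 rats had the lowest Slc14a1 values of the TBI group, 0.30 and 0.16. For Glul it was -0.67 to -0.27 in sham rats and -0.35 to 0.11 in TBI rats, with 3 of 6 TBI rats above every sham rat.

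**Figure D4:**
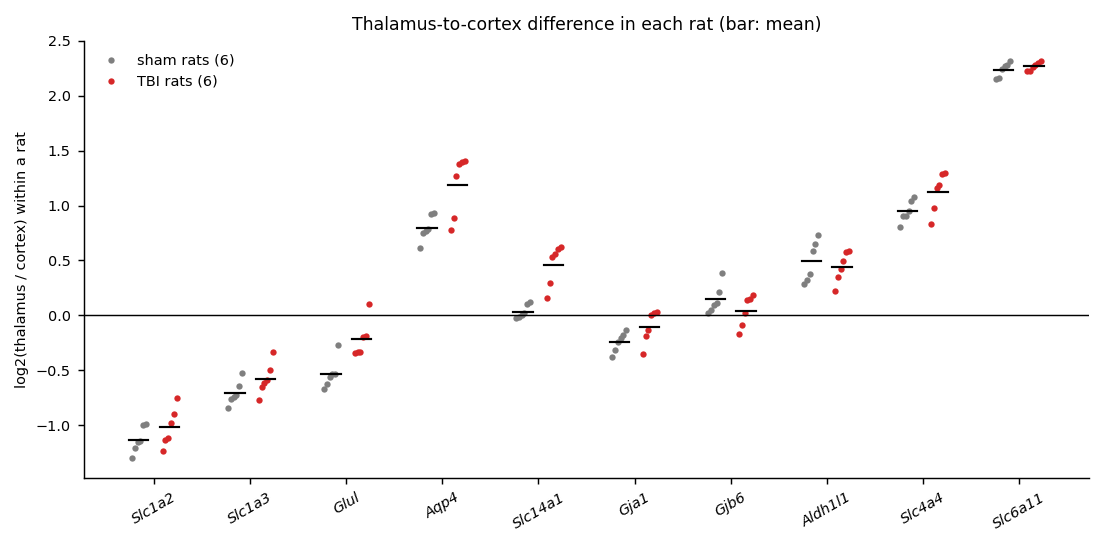
Log2 ratio of thalamus to cortex within each rat (vertical axis) for the 10 genes, with grey points for 6 sham and red for 6 TBI rats and bars at the mean. Slc14a1 separates the groups (sham mean 0.03, TBI mean 0.46), whereas Slc6a11 lies at 2.24 and 2.27.

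In sham rats alone, genes of the set differed between regions in both directions. Thalamus was higher than cortex for 5 of the 10 genes and lower for 4, where 33.9% of all 15582 loci were higher and 28.3% lower, and the libraries did not overlap for 8 of the 10, against 43.1% of all loci. Slc6a11 was 4.71-fold higher in the thalamus (log2 difference 2.24 ± 0.038, limma adjusted p = 5.97e-16), Slc4a4 1.93-fold (adjusted p = 1.53e-10), Aqp4 1.74-fold (adjusted p = 9.54e-10) and Aldh1l1 1.41-fold (adjusted p = 4.74e-06). Gjb6 was 1.11-fold higher (limma adjusted p = 0.047) with overlapping libraries, and that call was lost when any sham rat but 38 was left out. It was also lost with TMM scaling (adjusted p = 0.0843), upper quartile scaling (0.0902), no filter on low values (0.0558), edgeR (0.0982) and DESeq2 (0.105). The 3 glutamate genes of the set were lower in the thalamus, with Slc1a2 2.19-fold higher in the cortex (adjusted p = 4e-11), Slc1a3 1.63-fold (adjusted p = 2.97e-09) and Glul 1.45-fold (adjusted p = 1.51e-07), and Gja1 was 1.18-fold higher in the cortex (adjusted p = 0.000337). Of the 11 other glutamate and glutamine genes tested, 6 were higher and 1 was lower in the sham thalamus. Slc14a1 differed by 0.03 ± 0.045 on the log2 scale (adjusted p = 0.525, 95% confidence interval -0.06 to 0.13). The median log2 difference was 0.09 over the 10 genes and 0.03 over all loci.

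The order of the 4 groups followed from these values. For Slc1a2, Slc1a3, Slc4a4 and Slc6a11 the region set the order, since both groups of a region were neighbours with overlapping libraries and the regions were apart by 1.90-fold, 1.49-fold, 1.93-fold and 4.33-fold between the nearest group means. For Slc14a1 the injury set it, with TBI thalamus above TBI cortex by 1.38-fold, TBI cortex above sham thalamus by 1.55-fold and the sham groups overlapping. For Gja1, both TBI groups overlapped at the top and sham thalamus was apart at the bottom. For Glul, sham cortex was apart at the top and the other 3 groups overlapped with their neighbours. No neighbouring groups were apart for Gjb6 or Aldh1l1.

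Ratios of 2 genes within a library do not depend on the scaling between libraries, and transcript length cancels between groups. Of 8 ratio tests (4 ratios in 2 regions, exact two-sided permutation test over 924 splits of 12 libraries, Benjamini-Hochberg adjusted over the 8, smallest possible p 0.00216), 3 passed. Gja1 to Gjb6 was 4.87 ± 0.446 (SD, n = 6) in sham thalamus and 7.19 ± 0.844 in TBI thalamus (exact permutation p = 0.00433, adjusted p = 0.026), with only the TBI library of rat 45 within the sham range. In the cortex it was 6.37 ± 0.359 in sham and 7.94 ± 0.997 in TBI libraries (exact permutation p = 0.0108, adjusted p = 0.0289), and this call was lost at an adjusted p of 0.0519 when any of TBI rats 22, 24, 52, 56 and 63 or sham rats 26 and 55 was left out. Slc1a2 to Slc1a3 was 4.64 ± 0.242 in sham cortex and 4.17 ± 0.236 in TBI cortex (exact permutation p = 0.00649, adjusted p = 0.026), and 3.47 ± 0.391 against 3.07 ± 0.341 in the thalamus (exact permutation p = 0.0974, adjusted p = 0.156).

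Aqp4 to Slc14a1 did not pass in either region. It was 8.48 ± 0.719 in sham and 8.59 ± 0.613 (SD, n = 6) in TBI cortex, and 14.3 ± 0.701 in sham and 14.2 ± 1.17 in TBI thalamus (exact permutation adjusted p = 0.856 in both). Both groups of a region covered nearly the same range, from 7.18 to 9.24 in sham and 7.47 to 9.11 in TBI cortex. Glul to Slc1a2 was 0.387 ± 0.0246 in sham and 0.388 ± 0.0239 in TBI cortex (exact permutation p = 0.937), and 0.589 ± 0.0728 against 0.678 ± 0.0482 in the thalamus (exact permutation p = 0.026, adjusted p = 0.0519). In the thalamus the highest sham value, 0.732 in rat 32, lay above every TBI value. Without that library, 5 of the 8 ratio tests passed, with the thalamic Glul to Slc1a2 and Slc1a2 to Slc1a3 ratios among them (adjusted p = 0.0173 and 0.045). The thalamic Glul to Slc1a2 ratio also passed without the library of TBI rat 22 or 63 (adjusted p = 0.0476 for each).

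**Figure D5:**
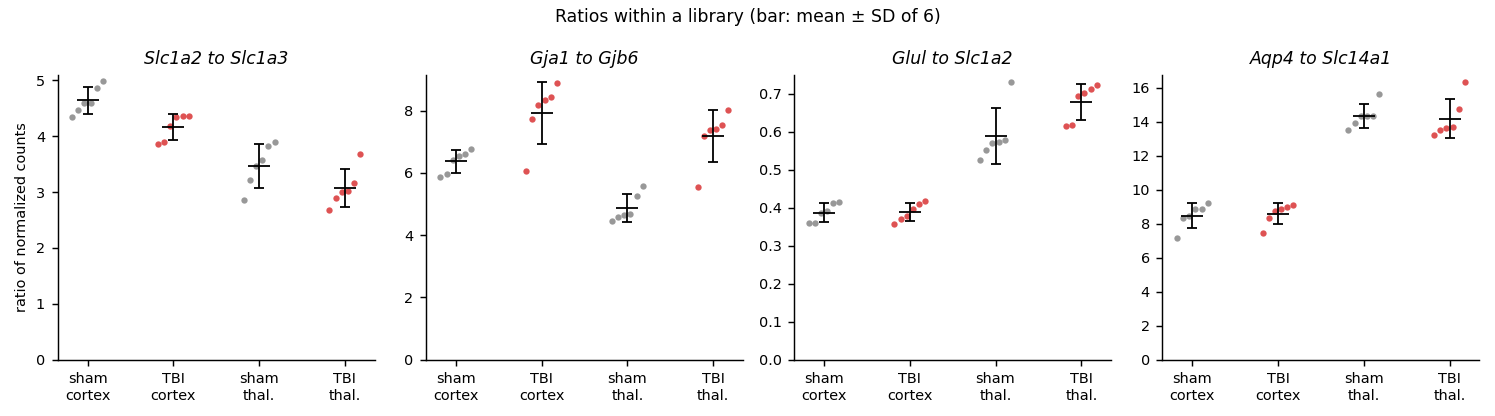
Ratio of the normalized counts of 2 genes within each library (vertical axes from 0), grey for sham and red for TBI libraries, with the mean ± SD of 6. Gja1 to Gjb6 is higher in TBI libraries of both regions except that of rat 45, at 6.06 in the cortex and 5.56 in the thalamus, and Aqp4 to Slc14a1 separates the regions but not TBI from sham.

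Related genes were read in lists by pathway. Of all loci tested, 14.3% rose and 14.9% fell in the cortex, and 14.5% rose and 20.9% fell in the thalamus. List counts near these shares are not a result about a pathway. Of 11 other glutamate and glutamine genes tested, 3 rose and 4 fell in the cortex, and 3 rose and 4 fell in the thalamus. The cystine and glutamate exchanger Slc7a11 rose in both (0.46 ± 0.11 in the cortex, limma adjusted p = 0.00671; 0.86 ± 0.25 in the thalamus, adjusted p = 0.017). The neutral amino acid transporter Slc1a5 rose in the cortex (0.76 ± 0.11, limma adjusted p = 0.000176) and the glutamine transporter Slc38a5 in the thalamus (0.56 ± 0.14, adjusted p = 0.00529). Of 6 genes for uptake or breakdown of GABA and glycine, 3 rose and 2 fell in the cortex, and 1 rose and 2 fell in the thalamus. Maob, an outer mitochondrial monoamine oxidase, rose in both regions (0.35 ± 0.058 and 0.49 ± 0.074), and the GABA transporter Slc6a13 rose in the cortex (0.78 ± 0.24, limma adjusted p = 0.0229). Slc6a13 is also made by leptomeninges, whose markers rose in the same libraries.

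Of 15 other water and potassium genes, 5 rose and 3 fell in the cortex, and 4 rose and 2 fell in the thalamus. Mlc1, a membrane protein of astrocyte endfeet, rose in both (0.54 ± 0.053 in the cortex, limma adjusted p = 9.3e-06; 0.65 ± 0.070 in the thalamus, adjusted p = 1.14e-05). The potassium channel gene Kcnj16 rose in the cortex from 266 ± 57.4 to 614 ± 123 normalized counts (SD, n = 6; 1.21 ± 0.13, limma adjusted p = 2.55e-05), and its level in the thalamus was 4433 ± 224 in sham and 4081 ± 213 in TBI rats. Kcnk1, a potassium channel that neurons also make, fell in the thalamus (-0.55 ± 0.057, limma adjusted p = 7.67e-06) and in the cortex (-0.25 ± 0.084, adjusted p = 0.0387). Kcnj10, another potassium channel gene of the list, fell in the cortex (-0.42 ± 0.071, limma adjusted p = 0.000694) and in the thalamus (-0.23 ± 0.059, adjusted p = 0.00699). Of 7 other genes listed for gap junctions and pannexins, 1 rose and 1 fell in the cortex. In the thalamus 3 fell and 1 rose, Tjp1 (0.27 ± 0.069, limma adjusted p = 0.00711), which is neither a connexin nor a pannexin. Gjd2, the connexin of neurons, fell in both (-0.59 ± 0.10 and -0.51 ± 0.089), Panx2 fell in the thalamus (-0.76 ± 0.10, limma adjusted p = 6.96e-05), and Gjb2, which leptomeninges also make, rose in the cortex (0.49 ± 0.14, adjusted p = 0.0175).

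Of 9 bicarbonate and proton transport genes, none rose and 3 fell in the cortex by limma (1 higher at an unadjusted p under 0.05, none by edgeR or DESeq2), and 3 rose and 5 fell in the thalamus. The anion exchanger Slc4a3 fell in the thalamus (-0.49 ± 0.066, limma adjusted p = 8.07e-05). Carbonic anhydrase 4 (Car4) and the bicarbonate transporter Slc4a10 fell in the cortex (-0.34 ± 0.083 and -0.26 ± 0.062, adjusted p = 0.00717 and 0.00616). Both also fell in the thalamus (-0.27 ± 0.078 and -0.30 ± 0.11, limma adjusted p = 0.0159 and 0.0489). Of 9 folate genes, 2 rose and none fell in the cortex by limma, edgeR or DESeq2 (also none lower at an unadjusted limma p under 0.05), and 3 rose and 3 fell in the thalamus. Aldh1l2, the mitochondrial relative of Aldh1l1, rose from 13.4 ± 2.24 to 51.1 ± 9.11 normalized counts in the thalamus (SD, n = 6; 1.86 ± 0.18, limma adjusted p = 4.27e-06) and from 12.1 ± 5.24 to 21.8 ± 4.29 in the cortex (0.89 ± 0.30, adjusted p = 0.0342). The serine hydroxymethyltransferase Shmt1 rose in both regions (0.58 ± 0.13 in the cortex and 0.62 ± 0.15 in the thalamus).

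Of 19 other astrocyte genes, 8 rose and 1 fell in the cortex (Aldoc), and 9 rose and 1 fell in the thalamus (Mfge8). Microglia and macrophage markers also rose in both regions, and the part of other cell types in the rises of this list was not tested. Gfap, the intermediate filament of reactive astrocytes, rose from 12344 ± 1777 to 59944 ± 13737 normalized counts in the cortex and from 22021 ± 4545 to 103950 ± 10477 in the thalamus (SD, n = 6; limma adjusted p = 4.85e-07 and 2.33e-08). The filament gene Vim rose in the cortex (1.47 ± 0.16, limma adjusted p = 2.33e-05) and in the thalamus (1.28 ± 0.21, adjusted p = 0.000302). The phospholipase gene Pla2g7 rose in the thalamus (1.54 ± 0.077, limma adjusted p = 1.74e-08) and in the cortex (0.97 ± 0.077, adjusted p = 2.02e-06). The log2 fold change of Gfap was 2.26 in both regions, above that of every gene of the set.

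Within groups, the genes did not vary as a unit. The deviation of each library from its group mean was correlated between genes over the 24 libraries of 12 rats, as a description, since the 2 libraries of a rat share that animal and all values of a library share its scaling. Of 45 pairs within the set, 8 had a Pearson r over 0.5 and 10 had an r below 0, with a median of 0.23. The highest were Slc1a2 with Slc4a4 (r = 0.84), Aqp4 with Gja1 (r = 0.76), Gja1 with Gjb6 (r = 0.63) and Aqp4 with Slc14a1 (r = 0.60).

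Among 13750 other named loci with a mean of at least 50 normalized counts, the most alike to Slc1a2 were Prex2, Rorb and Creb5 (r = 0.90, 0.89 and 0.87), and to Slc1a3 were Atp13a4, Itih3 and the locus named for both Ang and Rnase4 (r = 0.79, 0.78 and 0.77). Glul was most like SNX5, Orc5 and Tnnc2 (r = 0.87, 0.82 and 0.81). Slc6a11 was most like Bspry, Mgll and Lynx1 (r = 0.84, 0.82 and 0.80). Aqp4 was most like Magt1, Prrx1 and Cyp7b1 (r = 0.82, 0.81 and 0.81), and Slc14a1 had the lowest values of the set, with Swap70, Mcc and Zfp202 (r = 0.71, 0.70 and 0.70). Gja1 was most like Atg4a, the locus of Phyh and Sephs1, and Tmod3 (r = 0.80, 0.76 and 0.76). Gjb6 was most like Fkbp10, Serpinh1 and Fkbp14 (r = 0.91, 0.90 and 0.89). Both libraries of TBI rat 45 stood apart as the highest of their groups for Gjb6. Its r values, also that with Gja1, were not computed without these libraries. Slc4a4 was most like Orc3, Itgav and Twistnb (r = 0.85, 0.85 and 0.84), and Aldh1l1 was most like Pnpla7, Tgds and PDXDC1 (r = 0.79, 0.76 and 0.76).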

How the data were processed

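RNA of the perilesional cortex and ipsilateral thalamus was sequenced as stranded polyadenylated libraries. Per the submitters' processing notes, TopHat2 2.0.11, Bowtie2 2.2.2 and Cufflinks 2.2.1 with Cuffdiff were used on Rnor_5.0. The study's methods name an older assembly as the reference genome and Rnor_5.0 for the transcript annotation. The deposited values are a signal per locus, fragment counts divided by a size factor, so they are not raw counts. Whole fragments were recovered for all values up to 1000 fragments and 99.97% of all values in the lowest library (tolerance 0.1 fragments). Unnamed loci took 1.9% to 2.23% of the values and were left out.

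Named loci with a mean of at least 10 were tested with limma 3.58.1 (R 4.3.3) on log2(value + 1), called at an adjusted p under 0.05. The fits were tested on simulated counts drawn independently for each library, with the same dispersion at every locus. The simulation therefore did not test the link between the libraries of a rat or uneven tissue between libraries. edgeR 4.0.16 and DESeq2 1.42.0 ran on the recovered fragments. The genes and lists were chosen with earlier results of these data known. But for Tjp1, Kcnj10, Aldoc and Mfge8, named list genes were the 2 called loci of largest change per list and region, and the 3 most alike loci per gene. Some loci that this rule names are not reported here. Rats link the regions: deviations of a rat's 2 libraries correlated with a median r of 0.187 (0.00393 to 0.569), over 0.1 in 10 of 12 rats. Permutation tests used Python 3.11.15. The 6 libraries of high choroid plexus level were left out as an alternative chosen after seeing the data.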

Additional observations from a re-analysis of the deposited data

Results flagged for a closer look

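In 56 groups of 6 values (10 genes and 4 ratios in 4 groups), 8 had a highest or lowest library farther from its nearest neighbour than Dixon's 95% limit allows, where chance flags about 1 in 20 groups. TBI rat 45 gave 4 of the 8. Gjb6 was highest there in the cortex (3145 normalized counts, next 2418) and in the thalamus (3469, next 2312), Slc6a11 was lowest there in the cortex (3902, next 4597), and its thalamic Gja1 to Gjb6 ratio was the lowest of its group (5.56, next 7.20). Sham rat 32 gave the highest Glul (55595) and the highest Glul to Slc1a2 ratio (0.732) of the sham thalamus. Slc4a4 was highest in sham cortex in rat 50 (9610), and Slc6a11 was lowest in sham thalamus in rat 26 (22840).

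The TBI effect differed between regions by the test of the difference itself (limma, 24 libraries) for Glul (0.32 on the log2 scale, thalamus minus cortex), Aqp4 (0.39) and Slc14a1 (0.43).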

How the results depend on the processing

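No member of the set that rose in the thalamus lost its call or direction at an adjusted p under 0.05 under any alternative run. Gja1, Aqp4 and Slc14a1 likewise kept theirs in the cortex. At an adjusted p under 0.01, loci called fell to 2436 in the cortex, 3429 in the thalamus and 404 for the difference between regions (from 4531, 5516 and 1138), and genes of the set called for that difference to 1 from 3. Without the 6 libraries of high choroid plexus level, the calls were 3 genes of the set and 2162 loci in the cortex, and 1 gene and 422 loci for the difference between regions. Fewer libraries were then tested, and the cause was not tested further. Leaving out 1 library gave 5 to 7 genes of the set in the cortex and 4 to 5 in the thalamus, leaving out 1 rat gave 2 to 3 for the difference between regions with 690 to 1204 loci (690 without rat 24, 695 without rat 50) and 8 to 9 for the sham regions, and the ratio tests that passed numbered 2 to 5. The edgeR fit called 6, 4, 3 and 8 genes of the set in the 4 comparisons and DESeq2 7, 4, 3 and 8. In the cortex, 5 were called with upper quartile scaling (4 rises and 1 fall) and 5 with no filter on low values.

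With the rat as a replicate block, 3 genes of the set and 1612 loci were called for the difference between regions and 9 genes for the sham regions, and no call on a gene of the set changed. Directions that reversed were all of values near 0. Gjb6 in the cortex was 0.0013 by DESeq2 and -0.11 to 0.0143 when 1 library was left out, Slc14a1 between sham regions was -0.00051 by DESeq2, and Slc6a11 for the difference between regions was -0.0046 without the libraries of high choroid plexus level. When 1 library was left out, the log2 change of the Glul to Slc1a2 ratio was -0.018 to 0.028 in the cortex, and that of Aqp4 to Slc14a1 was -0.028 to 0.059 in the cortex and -0.059 to 0.0067 in the thalamus. The lowest value of the set was 1027 normalized counts, and the number of rats (6 a group) limits the precision.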
